A study of Macaca fascicularis
Homo sapiens with 2 samples.

Results

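The cells described here were 1231 human pluripotent cells at day 0, before neural induction, that carried the largest share of transcripts from 8 cell division genes. The 4927 human cells of the day 0 library were ranked into 4 groups of near equal size, and the members were the highest group, chosen by the share of each cell's own human UMIs (unique molecular identifiers, the counted transcript molecules) that fell on UBE2C, TOP2A, PLK1, AURKA, CENPE, CENPA, KIF23 and CDK1. They are called the high score group and were set beside the 1231 cells of the low score group, with the 2 middle groups given between them. Since measured values of these genes chose the members, the 8 genes are given as a description, and every other gene was measured in the same cells of the same library.

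The series profiled UGP2 knockout cells of 2 primates by droplet single-cell RNA sequencing at day 0 and day 7. The UGP2 enzyme forms UDP-glucose, from which glycogen is built. The day 0 group was UGP2 knockout cells kept in UPPS medium, of the H9 line for human (embryonic stem cells) and the 56A1 line for cynomolgus macaque (induced pluripotent stem cells). The day 7 group was the same lines after 7 days in NPC differentiation and maintenance media, which held SB431542 and LDN193189, inhibitors of the activin and BMP receptors. Both species were mixed in each library, so species was read from the genome that the UMIs mapped to. Every cell carried the knockout label, and no wild-type cell was used here, so nothing below measures an effect of the knockout. Each species was 1 line, whether the knockout lines were single clones is not given in the sources used here, and UGP2 itself was at 231, 236, 214 and 195 CPM in the low, lower-middle, upper-middle and high score groups. These 3′ tags do not show whether the gene product was lost.

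With 1 library per day there was no replicate, so no test was run and no p-value is given. Levels are in CPM, the usual scaling of counts to a common total, here of human UMIs outside the mitochondrial genes summed over the cells of a group. Intervals are exact 95% intervals that cover counting error only, and they say nothing of how another culture would vary. A gene is called higher or lower here by size alone, when log2((CPM high + 1)/(CPM low + 1)) passed 1 or -1, which is called 2-fold below. Where 4 values are given in a row, they follow the order low, lower-middle, upper-middle and high.

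A dividing cell copies its DNA in S phase, checks it in G2 and separates the copies in mitosis, and many genes of each step are transcribed only shortly before their product is needed. Pluripotent stem cells are known for fast cycles with a short G1 phase. Genes of the late steps, such as the 8 used here, are known to peak in G2 and mitosis, when the B-type cyclins with CDK1 drive entry into mitosis and the anaphase-promoting complex then destroys cyclin to end it.

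The day 0 library held 12093 barcodes and the day 7 library 16403, and 50 barcode sequences occurred in both, 5 of them barcodes of the high-score cells. Depth moved with the score. Median human UMIs per cell were 6400, 7062, 7356 and 8514, and median genes per cell 3124, 3333, 3413.5 and 3720. Thinned to 2500 human UMIs per cell, which left out 32, 31, 74 and 80 cells, the median number of genes was 1526, 1536, 1526.5 and 1527. The median mitochondrial share was 8.38%, 8.25%, 8.08% and 7.73%. Among the 5% of human cells with the most UMIs, 17 lay in the low score group and 106 in the high score group, and whether barcodes with 2 cells were among them was not tested.

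The score was a range with no gap. Its median was 0.0263%, 0.0602%, 0.110% and 0.204% of a cell's UMIs, and the highest cell reached 0.617%. The last cell inside the high score group was at 0.152138% (20 of 13146 UMIs) and the first outside at 0.152066% (18 of 11837 UMIs). At the other end the last cell inside the low score group was at 0.043778% and the first outside at 0.0438084%. In all, 440 cells lay within 10% of the upper limit, 210 of them members. The members were therefore a range of a score and not a separate type. In the high score group a cell carried a median of 18 scoring UMIs and no fewer than 3. In the low score group the median was 2, and 214 cells had none.

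The label was checked against marker genes. POU5F1, the transcription factor that defines the pluripotent state, was at 1147, 1174, 1216 and 1241 CPM. Thinned to 2500 UMIs, 86.1% of low-score and 90.1% of high-score cells had a POU5F1 UMI (94.6% and 97.4% without thinning). The human copy of POU5F1 was also seen in 34.8% of thinned cynomolgus day 0 cells, which should lack it (62.4% without thinning). That was the highest such share among the genes checked, so detection of POU5F1 alone is a weak check of the label. SOX2, its partner, was at 280.2 CPM in the low and 272 CPM in the high score group, and L1TD1, which binds RNA in pluripotent cells, at 1225 and 1196 CPM. Of 22 pluripotency genes, 20 passed the minimum of 5 CPM over all human day 0 cells, with a median log2 difference of -0.01. None was 1.5-fold different, beside 1.38% of all genes tested that were higher and 1.63% that were lower. None of 17 genes of mesoderm, endoderm and amnion passed that minimum. Their summed level was 10.8 CPM in the low and 10.7 CPM in the high score group, and TBXT, EOMES, SOX17 and HAND1 had 0 UMIs in both. Of 24 neural progenitor genes 17 passed the minimum, with a median log2 difference of -0.19. GREB1L alone was 1.5-fold lower, beside 1.63% of all genes tested. Summed over all 24, they were at 1055 CPM in the low and 951 CPM in the high score group. ZIC2, a zinc finger factor, led them at 246 CPM in the high score group, while PAX6 and SOX1 were near 0, at 1.14 and 0.208 CPM.

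A minority of cells in each group carried early anterior neural transcripts. Cells with 3 or more UMIs over SIX3, SIX6, LHX2, DLK1 and GREB1L made up 10.9% of the low score group (exact binomial 95% interval 9.2% to 12.8%), 6.89% of the lower-middle, 6.49% of the upper-middle and 7.55% of the high score group (6.14% to 9.18%). The log2 differences of IGFBP5 and UNC5C are therefore also given below without these cells. With these cells left out, 37 of the 42 genes at least 2-fold higher in the high score group were again past that size. The same held for 24 of the 29 lower genes.

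The 8 scoring genes carry out successive steps of late cell division. UBE2C, the ubiquitin-conjugating enzyme that works with the anaphase-promoting complex, was at 70.0, 188.9, 398 and 824 CPM. TOP2A, the topoisomerase that untangles sister DNA, was at 61.3, 158.9, 281 and 462 CPM. CDK1, the kinase that drives cells into mitosis, was at 38.6, 88.1, 142 and 268 CPM. In each of these 3 genes every group was above the one before, which the choice of cells imposes. PLK1 and AURKA, kinases of the centrosome and spindle, were at 24.8 and 18.8 CPM in the low and 194 and 175 CPM in the high score group. CENPE, a kinetochore motor, went from 30.9 to 188 CPM and CENPA, the centromere's histone H3, from 11.9 to 103 CPM. KIF23, a motor of the cytokinetic bridge, went from 17.3 to 108 CPM.

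UBE2C supplied 35.5% of the members' scoring UMIs and 25.6% of those in the low score group, so it weighed most in the choice. It was detected in 99.2% of members, TOP2A in 91.1%, CDK1 in 82.5%, PLK1 in 74.9%, AURKA in 70.3%, CENPE in 67.0%, CENPA in 53.9% and KIF23 in 52.3%. A member showed a median of 6 of the 8 genes, and 1023 members (83.1%) showed at least 5. Scoring UMIs thus came from several genes in most members, which is a description only, since the same genes chose the cells.

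Each gene was also measured with the cells ranked on the other 7, so that its own counts had no part in the ranking. AURKA was then 4.70-fold higher in the high score group (4.11 to 5.40) and UBE2C 4.40-fold (4.13 to 4.69). CENPA was 3.90-fold higher (3.32 to 4.61), PLK1 3.31-fold and CDK1 3.22-fold. TOP2A, KIF23 and CENPE were at 3.18-fold, 3.15-fold and 2.82-fold. These values are smaller than the 6.08-fold to 11.8-fold found when each gene helped to choose its own cells, and from 82.4% to 95.8% of members were the same cells. All 8 genes were therefore higher in cells picked by the rest of the set.

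**Figure D1:**
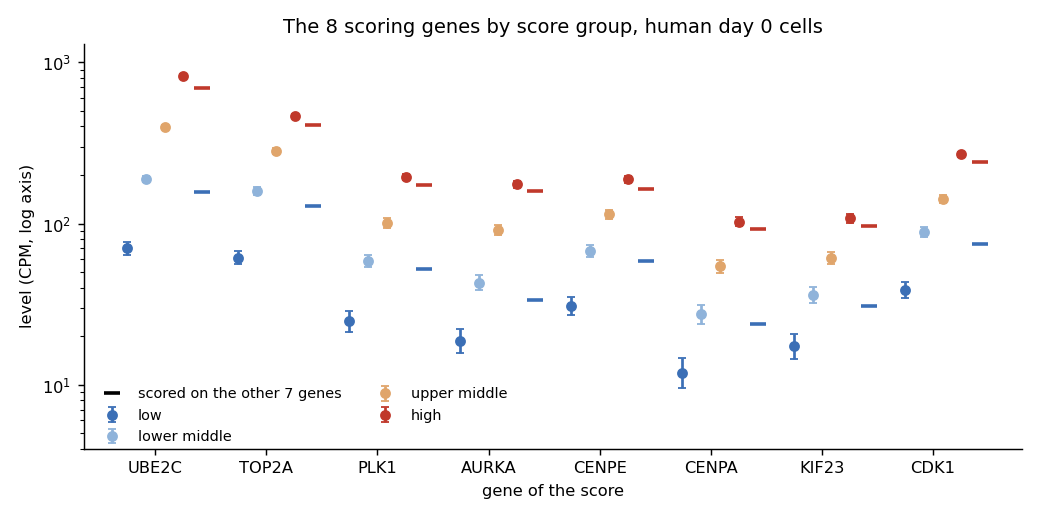
Level in CPM (log axis) of the 8 scoring genes in each score group of the human day 0 cells. Points are groups with exact 95% Poisson intervals, and short bars are the low and high score groups when cells were ranked on the other 7 genes. UBE2C runs from 70.0 CPM in the low to 824 CPM in the high score group, and from 157 to 691 CPM in the bars.

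Shares of cells with a UMI were compared at equal depth. Of high-score cells thinned to 2500 UMIs, 84.0% had a UBE2C UMI and 62.3% a TOP2A UMI. In the low score group the shares were 14.3% and 14.1% (34.2% and 31.6% unthinned). The human copies of the same genes were seen in 5.39% and 4.54% of 2005 cynomolgus day 0 cells, which should lack them, at a median depth of 5718 UMIs before thinning. The shares in the low score group lay above those in the cynomolgus cells, which is a description only, since both genes chose the cells.

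Among genes outside the score, 11141 were at 5 CPM or more over all human day 0 cells. Of these, 42 (0.377%) were at least 2-fold higher in the high score group and 29 (0.26%) at least 2-fold lower. At 1.5-fold, a size chosen after the values were seen, 154 (1.38%) were higher and 182 (1.63%) lower. The median log2 difference over all of them was -0.02, with 5% of genes below -0.40 and 5% above 0.36. Differences between the groups were thus small for most genes. Of the 29 lower genes 12 carried histone symbols, out of 32 such symbols tested. Of the 42 higher genes 27 were on lists of mitosis genes. With members chosen after every cell was thinned to 2500 UMIs, 20 genes were at least 2-fold higher, 12 of them on the mitosis lists, and 12 genes were lower. CDCA3, KIFC1 and CDCA8, past 2-fold with full counts, then fell short of it.

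The 7 lists of mitosis genes held 150 genes past the minimum, and the 27 that were at least 2-fold higher stand beside the 0.377% of all genes tested. At 1.5-fold, 51 of the 150 were higher and 1 lower. Summed over all 152 measured genes of these lists, the level was 11071 CPM in the low and 14590 CPM in the high score group, 1.32-fold higher (1.31 to 1.33). The lists differed in how many members were higher. Motors, spindle proteins and cytokinesis factors made up 18 of the 27, and proteins of centromeres, kinetochores and chromosomes 5.

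Mitotic cyclins and kinases came first in order of action. CCNB1, the main B-type cyclin, was at 200.9, 207, 269.6 and 379.5 CPM, 1.89-fold higher in the high score group (1.78 to 2.01). CCNB2, the other B-type cyclin, was at 176, 149, 164 and 212 CPM, so it was highest in the high and lowest in the lower-middle score group. CCNA2, the cyclin of S phase and G2, was at 103, 107, 119.7 and 135 CPM. CCNF, an F-box protein that marks substrates for destruction in G2, was at 16.6, 24.3, 31.5 and 45.6 CPM, 2.75-fold higher (2.25 to 3.39). NEK2, a centrosome kinase, was 2.01-fold higher in CPM and BORA, the activator of AURKA and PLK1, 2.21-fold. CDC25C, a phosphatase that activates CDK1 at mitotic entry, was at 37.9 and 62.2 CPM in the low and high score groups. CDC25A, its relative that also acts at the start of S phase, ran the other way, at 61.9, 56.7, 40.4 and 33.0 CPM. Of 16 genes in this list, 2 were at least 2-fold higher (CCNF and BORA) and none 2-fold lower, with a median log2 difference of 0.37.

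The anaphase-promoting complex and its checkpoint followed. CDC20, the activator that lets the complex start anaphase, was at 159.5, 152, 177 and 246 CPM, 1.54-fold higher in the high score group (1.44 to 1.65). FZR1, the activator that takes over at mitotic exit, was low, at 5.67 and 13.3 CPM. TTK, the kinase that starts the spindle checkpoint, was at 33.5 and 69.3 CPM, and BUB3, a checkpoint protein at the kinetochore, at 148 and 291 CPM. UBE2S, which extends ubiquitin chains on the complex's substrates, was at 560.2, 583, 736 and 966 CPM. PTTG1, the securin that guards sister chromatids, was at 219 and 259 CPM, a smaller difference. Of 26 members past the minimum, 2 were at least 2-fold higher (TTK and FZR1) and the median log2 difference was 0.17.

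Centromere and kinetochore genes ranged in log2 difference from -0.41 for KNTC1 to 1.58 for HJURP. HJURP, the chaperone that loads CENPA, was at 24.7, 30.6, 52.8 and 75.9 CPM, 3.07-fold higher (2.61 to 3.63). CENPF, a large kinetochore protein of G2 and mitosis, was at 229, 246, 369 and 555 CPM, 2.42-fold higher (2.29 to 2.56). SGO2, which protects centromeric cohesion, was at 38.5 and 88.7 CPM and NDC80, the microtubule-binding subunit, at 35.9 and 76.3 CPM. Other subunits differed by less. CENPC was at 27.9 and 33.1 CPM and CENPH at 137 and 145 CPM, while CENPK was lower, at 143 and 113 CPM. In this list 4 of 39 genes were at least 2-fold higher, none lower, and the median log2 difference was 0.12.

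All 11 mitotic kinesins, the motors that build and move the spindle, had a log2 difference above 0, from 0.21 for KIF15 to 1.39 for KIF14, with a median of 0.92. KIF14, a motor of the midbody, was at 29.6, 38.3, 57.3 and 78.8 CPM, 2.67-fold higher (2.29 to 3.11). KIFC1, a minus-end motor that bundles spindle poles, was at 32.5, 40.7, 51.8 and 78.6 CPM. KIF18A, which trims kinetochore microtubules, was at 24.4 and 52.4 CPM, and KIF2C, a microtubule depolymerase, at 24.0 and 51.5 CPM. In these 4 motors, the ones past 2-fold, the high score group was the highest. KIF15, at 46.3, 52.0, 54.9 and 53.8 CPM, was highest in the upper-middle score group.

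All 25 spindle and centrosome genes were likewise above 0, with a median log2 difference of 0.77, and 9 were past 2-fold. DEPDC1 had the largest log2 difference on the higher side among genes at 20 CPM or more, at 12.8, 15.5, 28.9 and 45.6 CPM, 3.56-fold higher (2.85 to 4.49). FAM83D, which brings a kinase to the spindle, was at 38.7, 56.2, 91.4 and 119.9 CPM, 3.10-fold higher (2.72 to 3.54). CKAP2L, a spindle-associated protein, was lower in level, at 8.10 and 30.4 CPM, and 3.75-fold higher (2.83 to 5.04). TPX2, the activator and spindle anchor of AURKA, was at 199.9, 216, 300.5 and 422 CPM. ASPM, which holds the spindle poles and is known from inherited small brain size, was at 67.3 and 148 CPM. HMMR, PSRC1, GTSE1 and PRC1 completed the 9. Centrosome scaffolds without a known mitotic peak were near level: PCM1 was at 124 and 126 CPM and NEDD1 at 28.1 and 28.3 CPM.

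The chromosomal passenger complex and cytokinesis genes, which correct attachments and then divide the cell, had 11 members, all above 0, and 5 past 2-fold. RACGAP1, KIF23's partner in the central spindle, was at 20.4, 23.3, 36.5 and 53.3 CPM, 2.62-fold higher (2.18 to 3.16). CDCA8, the borealin subunit of the passenger complex, was at 26.6, 33.7, 45.9 and 63.3 CPM, and INCENP, its scaffold, at 12.7 and 28.6 CPM. CDCA3, which targets the mitotic brake WEE1 for destruction, was at 33.6, 37.3, 58.0 and 83.4 CPM. AURKB, the kinase of the complex, was at 86.4 and 158 CPM and stayed under 2-fold. BIRC5, the survivin subunit, was at 139.9 and 177 CPM. Subunits of the same complex thus spanned log2 differences from 0.34 to 1.22.

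The list of condensin, cohesin and chromosome coating genes had a median log2 difference of -0.07 over 22 genes, with 3 at least 1.5-fold higher and none lower, beside 1.38% of all genes tested that were higher. Cohesin subunits SMC3 and RAD21, which hold sister chromatids together, were at 163 and 161 CPM and at 187 and 178 CPM. The condensin subunits NCAPD2 and NCAPG, which compact mitotic chromosomes, were among the 3, at 50.1 and 79.1 CPM and at 50.5 and 76.4 CPM. The 1 gene past 2-fold was MKI67, which coats mitotic chromosomes and is the Ki-67 marker of dividing cells. MKI67 was at 54.2, 66.8, 98.7 and 155 CPM, 2.86-fold higher (2.56 to 3.20). At equal depth 28.8% of high-score and 11.7% of low-score cells had an MKI67 UMI (62.8% and 26.6% unthinned), against 1.65% for the human copy in cynomolgus cells.

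Named genes outside the lists included KPNA2, an importin that also regulates spindle assembly, at 297, 321, 488 and 725 CPM, and PIF1, a DNA helicase, at 20.2, 31.3, 46.7 and 60.1 CPM. HYLS1, a centriole protein, was at 16.9, 18.4, 30.9 and 39.9 CPM. G2E3, a ubiquitin ligase named for its G2 peak, was at 73.0 and 154 CPM. APOLD1 had the largest log2 difference of all genes tested, 2.07, but at 2.29 and 12.8 CPM it lay under the 20 CPM used for naming.

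**Figure D2:**
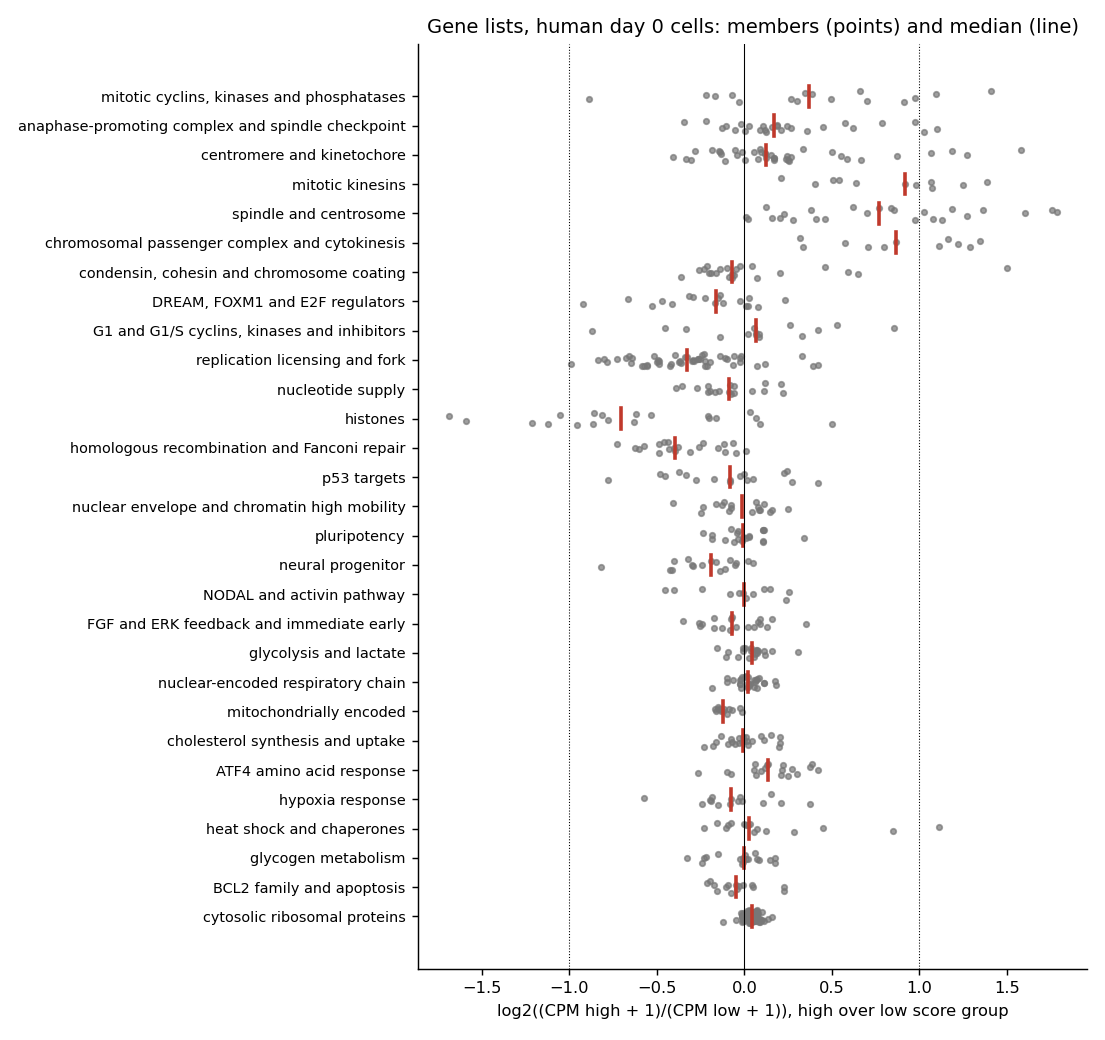
log2((CPM high + 1)/(CPM low + 1)) for every gene past 5 CPM in each list (grey points) and the list median (red line), human day 0 cells. Dotted lines mark 2-fold. Kinesins, spindle genes and cytokinesis genes have medians of 0.92, 0.77 and 0.86, histones -0.70 and pluripotency genes -0.01.

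Genes of DNA replication were lower in the high score group by less than 2-fold. Of 51 licensing and fork genes, all past the minimum, 46 had a log2 difference below 0 and 10 were at least 1.5-fold lower, beside 1.63% of all genes tested. None was past 2-fold in either direction, and the median was -0.33. The summed level was 5362, 5207, 4694 and 4221 CPM, 0.787-fold in the high against the low score group (0.776 to 0.798). PCNA, the sliding clamp of the fork, was at 253, 248, 209.5 and 168 CPM. POLA1, the catalytic subunit of the primase-polymerase, was at 306, 277, 197 and 171 CPM, and MCM6 of the helicase at 132, 125, 102 and 83.3 CPM. UHRF1, which carries DNA methylation across the fork, was at 105, 91.9, 66.5 and 52.5 CPM, just short of the limit at -0.99. Among the 5 genes above 0 were CDC7, the kinase that fires origins, and its activator DBF4, at 46.3 and 61.1 CPM and at 104 and 140.1 CPM. The origin subunits ORC2 and ORC4 were also among them, at 82.6 and 104 CPM and at 86.4 and 90.7 CPM.

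A further 3 named genes of S phase were past 2-fold lower. DTL, the adaptor that destroys the licensing factor CDT1 during replication, was at 132, 106, 77.1 and 52.1 CPM, 0.395-fold (0.354 to 0.441). WDR76, a DNA damage adaptor, was at 42.6, 37.6, 24.7 and 16.3 CPM. FAM111B, a protease known from S phase, was at 33.7, 27.9, 20.1 and 14.8 CPM. In all 3 each group was below the one before.

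Genes of G1 and of entry into S phase differed among themselves. E2F1, the transcription factor that starts the S phase programme, was at 42.1, 33.4, 25.8 and 21.7 CPM. CCNE1, the cyclin of the G1 to S transition, was at 100.1, 93.2, 75.4 and 54.3 CPM, 0.542-fold (0.484 to 0.607). CCND1, the cyclin that responds to growth signals in G1, was at 137, 135, 132 and 144 CPM and did not follow them. CDKN1A, the p53-induced brake on the cycle, was at 6.21 and 4.26 CPM. FOXM1 and MYBL2, the factors that switch on the mitotic genes, were at 53.03 and 53.8 CPM and at 133 and 119.9 CPM. Of 18 E2F, FOXM1 and DREAM complex genes 2 were at least 1.5-fold lower, E2F1 and E2F7, and none higher. Of all genes tested 1.63% were lower and 1.38% higher by that size. Of 15 G1 cyclins, kinases and inhibitors 11 had a log2 difference above 0, with a median of 0.07. Beside the same shares of all genes, CCNE1 alone was 1.5-fold lower and CKS2 alone 1.5-fold higher. CKS2, a CDK-binding protein that also serves mitosis, was at 323, 341, 434 and 586 CPM.

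Repair by homologous recombination, which uses the sister DNA copy, ran parallel to replication. All but 1 of its 21 genes were below 0, with a median log2 difference of -0.40, and 3 were at least 1.5-fold lower, beside 1.63% of all genes tested. BRCA1, which promotes this repair at broken ends, was at 95.8, 89.8, 76.0 and 67.9 CPM. BRCA2, which acts after it in the same pathway, was at 68.7 and 66.4 CPM and so did not share the difference. Nucleotide supply genes were close to level, with a median of -0.09 over 18 genes. RRM2, the regulated subunit of ribonucleotide reductase, was at 162, 177, 157 and 141 CPM.

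Histone genes had the lowest list median, -0.70 over 20 genes, with 5 at least 2-fold lower, beside 0.26% of all genes tested, and 12 at least 1.5-fold lower, beside 1.63%. The 5 were all linker histone H1 genes, whose proteins bind the DNA between nucleosomes. They were among the 12 histone symbols at least 2-fold lower, and the rest of those 12 were not on this list. H1-3 was at 92.2, 104, 71.3 and 27.9 CPM, 0.302-fold in the high against the low score group (0.262 to 0.349). H1-1 was at 137, 151, 105 and 44.8 CPM, H1-5 at 41.7, 50.9, 39.1 and 18.6 CPM. H1-2 was at 67.3, 69.3, 56.2 and 31.9 CPM, and H1-4 at 27.8, 29.9, 21.6 and 11.4 CPM. With members chosen on thinned counts, H1-3 and H1-1 stayed past 2-fold, at log2 differences of -1.22 and -1.27, while H1-5, H1-4 and H1-2 did not, at -0.99, -0.88 and -0.68. With levels thinned too, H1-1 alone stayed past 2-fold (-1.25), and the other 4 lay between -0.81 and -0.27. In these 5 genes the lower-middle score group was the highest, so the level did not go down steadily with the score. H4C3, a core histone H4 gene, was likewise highest in the lower-middle and lowest in the high score group, at 1022, 1242, 1064 and 582 CPM.

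Histone genes that are not tied to replication were closer to level. H3-3A, a replacement histone H3 gene, was at 1861 and 1952 CPM, and H2AZ2 at 205 and 209 CPM. H2AX, the variant phosphorylated at DNA breaks, was at 103 and 146 CPM, the 1 member of the list with a log2 difference above 0.1. Summed over the list the level was 5474, 5710, 5377 and 4727 CPM. Replication-dependent histone messages mostly lack the poly(A) tail by which this kit captures RNA, and several are near copies of each other, so the counts of single histone genes are uncertain. At equal depth 14.2% of low-score and 5.56% of high-score cells had an H1-3 UMI (30.7% and 15.6% unthinned), and 0.449% of cynomolgus cells had the human copy. For H4C3 the shares were 73.9% and 59.5% (87.2% and 82.6% unthinned), against 7.08%.

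Cells split into 8 equal steps of the score showed where these groups turned. Relative to all human day 0 cells, the summed mitosis lists were at 0.876, 0.888, 0.902, 0.916, 0.957, 1.05, 1.12 and 1.21 from the lowest to the highest step. The replication list was at 1.11, 1.11, 1.09, 1.07, 1.01, 0.935, 0.898 and 0.847. Histones were highest in steps 3 and 4, at 1.08 each, and lowest in step 8, at 0.892. Across the same steps the pluripotency list stayed between 0.962 and 1.02 and the ribosomal protein list between 0.971 and 1.04. Most of the difference thus fell in the upper 4 steps. H1-3 was at 76.0, 106, 105, 104, 86.8, 57.9, 31.9 and 23.4 CPM over the 8 steps.

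**Figure D3:**
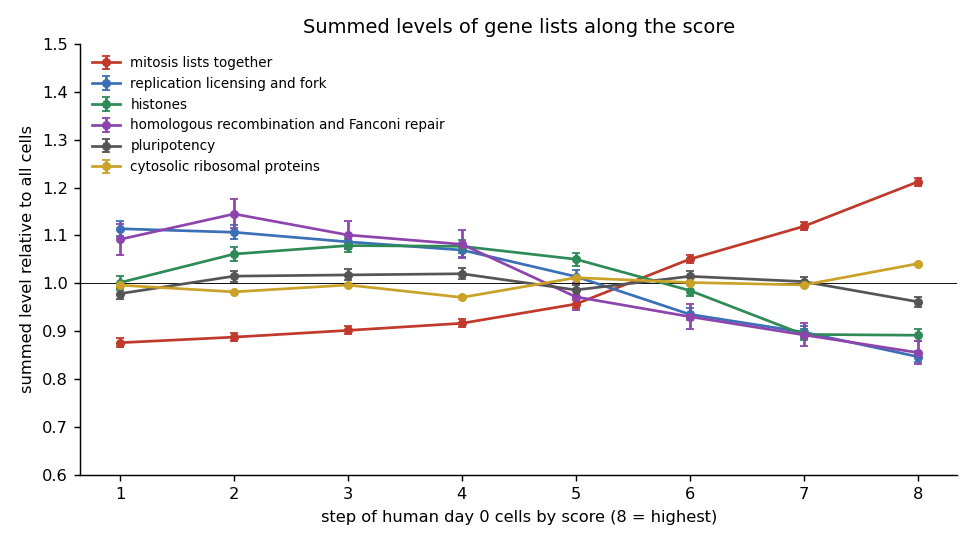
Summed level of 6 gene lists, divided by the level over all human day 0 cells, in each of 8 equal steps of the cells by score, with exact 95% Poisson intervals. Mitosis genes go from 0.876 to 1.21 while replication genes go from 1.11 to 0.847. Pluripotency genes stay between 0.962 and 1.02.

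Single cells overlapped between the groups. Of 2500 UMIs, a low-score cell had a median of 25 on the mitosis lists (10th to 90th percentile 18 to 32) and a high-score cell 33 (25 to 44). Of low-score cells 8.59% reached the high score group's median, and 11.6% of high-score cells were at or below the low score group's median. For the replication list the medians were 12, 12, 10.5 and 9 UMIs, and 82.7% of low-score cells were at or above the high score group's median. Histones were at 12, 13, 12 and 11 UMIs. Neither list of S phase genes separated single cells the way the mitosis lists did.

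**Figure D4:**
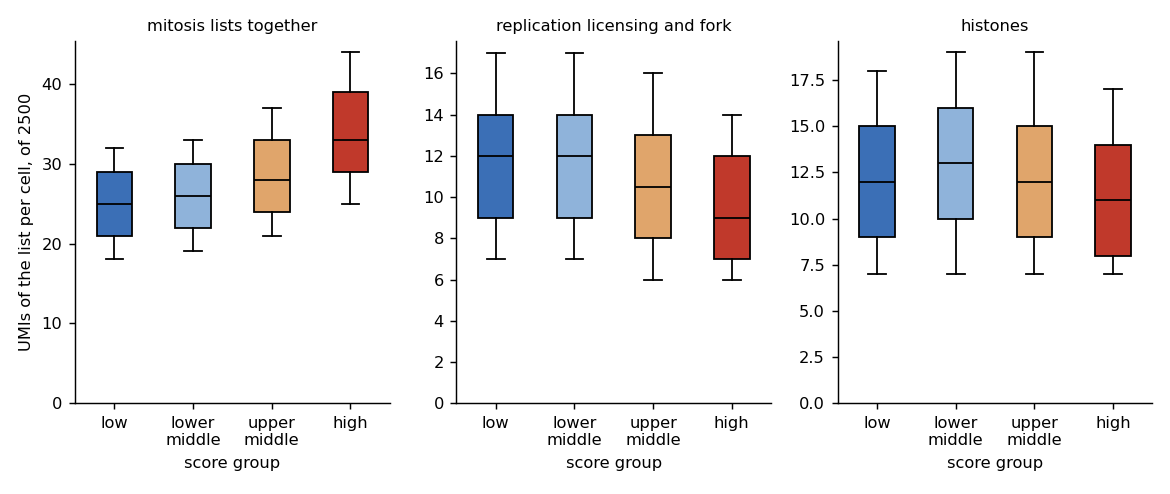
UMIs per cell on 3 groups of genes, out of 2500 UMIs drawn from each cell, by score group. Boxes span the 25th to 75th percentile with the median as a line, and whiskers the 10th to 90th. Median mitosis UMIs are 25, 26, 28 and 33, and median replication UMIs 12, 12, 10.5 and 9.

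Within the members, the 615 with the higher scores were set against the 615 with the lower scores. Their median depths were 8190 and 8846 UMIs, so the deeper cells had the lower scores here. The mitosis lists summed to 15207 and 14041 CPM (1.08-fold, 1.07 to 1.09), the replication list to 4091 and 4338 CPM (0.943-fold) and histones to 4722 and 4730 CPM (0.998-fold). CCNB2 was at 242 CPM in the higher and 185 CPM in the lower of these sets, and CDC20 at 271 and 224 CPM. MKI67 was at 175 and 137 CPM, and H1-1 at 34.9 and 53.7 CPM. Members thus still differed among themselves in the same directions for CCNB2, CDC20, MKI67 and H1-1, while PIF1 (59.4 and 60.8 CPM) and KIF14 (77.5 and 80.1 CPM) were level. IGFBP5 and UNC5C, both lower in the high than in the low score group, went the other way within the members. IGFBP5 was at 31.6 CPM in the higher and 9.45 CPM in the lower set, and UNC5C at 20.5 and 10.2 CPM.

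Genes unrelated to division were mostly level between the groups. Among 20 glycolysis genes none was 1.5-fold different, with GAPDH at 2183 and 2299 CPM and a list median of 0.05. The 29 nuclear genes of the respiratory chain had a median of 0.02 and the 18 genes of glycogen metabolism -0.00, with none past 1.5-fold. The 87 cytosolic ribosomal protein genes measured summed to 142604 and 146795 CPM. None of the 12 NODAL and activin, 19 FGF and ERK feedback, 23 cholesterol, 19 ATF4 response, 15 hypoxia or 15 BCL2 family genes was past 1.5-fold. Of all genes tested only 1.38% were higher and 1.63% lower by that size. The absence of such genes from lists this short therefore says little about these lists. Of 17 p53 targets 1 was 1.5-fold lower, TIGAR at 7.69 and 4.06 CPM, beside 1.63% of all genes tested. In the heat shock list HSPA1A, the inducible HSP70, was at 38.7, 46.2, 55.4 and 84.95 CPM and HSPA1B, a near-identical copy that can share its reads, at 21.7, 23.8, 30.4 and 39.9 CPM. The other 14 heat shock genes were under 1.5-fold, HSP90AA1 for example at 2347 and 2366 CPM.

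Some genes on the lower side belonged to neither S phase nor histones. IGFBP5, a secreted IGF-binding protein, was at 55.3, 19.3, 17.4 and 19.9 CPM, and UNC5C, a netrin receptor, at 34.3, 20.8, 14.996 and 15.1 CPM. In both the low score group stood apart from the rest, as it did for the share of early neural cells, 10.9% against 6.49% to 7.55%. Without those cells the log2 difference of IGFBP5 was -0.90 instead of -1.43, and that of UNC5C was 0.48 instead of -1.13. GREB1L, one of the genes that define those cells, was at 59.4 and 33.2 CPM. FBXL20, an F-box protein, was at 47.1, 34.5, 18.7 and 11.3 CPM, 0.241-fold (0.192 to 0.299), the largest difference on the lower side. SEMA3E, a guidance factor, was at 28.9, 23.9, 18.8 and 13.1 CPM and ZNF704, a zinc finger protein, at 35.6, 28.7, 22.3 and 16.7 CPM.

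The same score was computed in the other cells of the series. Thinned to 2500 own-species UMIs, 81.6% of human day 0 cells had a scoring UMI (80.5% to 82.7%). The share was 51.7% at day 7 in human cells (50.6% to 52.8%) and 90.9% in the cynomolgus cells of day 0 (89.6% to 92.1%). Shares with 5 or more scoring UMIs were 17.9%, 13.0% and 36.8%. Without thinning, 214 of 4927, 2892 of 7974 and 47 of 2013 cells had no scoring UMI, at median depths of 7205, 5019 and 5200 UMIs. The 90th percentile of the score was 0.219% in human day 0, 0.239% in human day 7 and 0.312% in cynomolgus day 0 cells. At day 7 the low score group held no scoring UMI at all, since 2892 cells had none and ties were broken by barcode order, so its contrast with the high score group is wider by construction.

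At day 7 the 1993 high-score human cells and the 1993 of the low score group differed in mitosis genes by more. Of 11201 genes tested there, 649 (5.79%) were at least 1.5-fold higher and 416 (3.71%) lower. Of 148 mitosis genes 119 were at least 1.5-fold higher, against 51 of 150 at day 0. CCNB1 was at 20.5 and 314 CPM in the day 7 groups, CDC20 at 14.9 and 211 CPM and MKI67 at 9.06 and 249.5 CPM. As a ratio, though not for MKI67 as a difference in CPM, the high score groups of the 2 days were closer to each other than the low score groups were for these 3 genes. Histones and replication genes lay on the other side at day 7. There 18 of 21 histone genes and 26 of 51 replication genes were at least 1.5-fold higher in the high than in the low score group. The replication list did not go up steadily, at a summed 3063, 3928, 5412 and 4595 CPM, highest in the upper-middle score group. Histones summed to 4153, 4438, 6162 and 6724 CPM. H1-3 was at 6.55 and 59.5 CPM and H4C3 at 171 and 1219.9 CPM there. The difference between days was not tested.

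Cynomolgus day 0 cells, 503 in the high score group, were split by the same score on their own copies of the genes. H1-3 was at 541.8 and 99.8 CPM, CCNB1 at 213 and 525 CPM and DTL at 156 and 71.3 CPM. Of 10404 cynomolgus genes tested, 410 (3.94%) were at least 1.5-fold higher and 374 (3.59%) lower. Of 45 replication genes 12 were at least 1.5-fold lower and 1 higher, and of 10 histone genes 8 were lower. Of the 30 named genes, FAM83D was among those that were close to level there, at 28.9 and 35.8 CPM. Values of the 2 species were mapped to different genomes and annotations, and their difference was not tested.

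**Figure D5:**
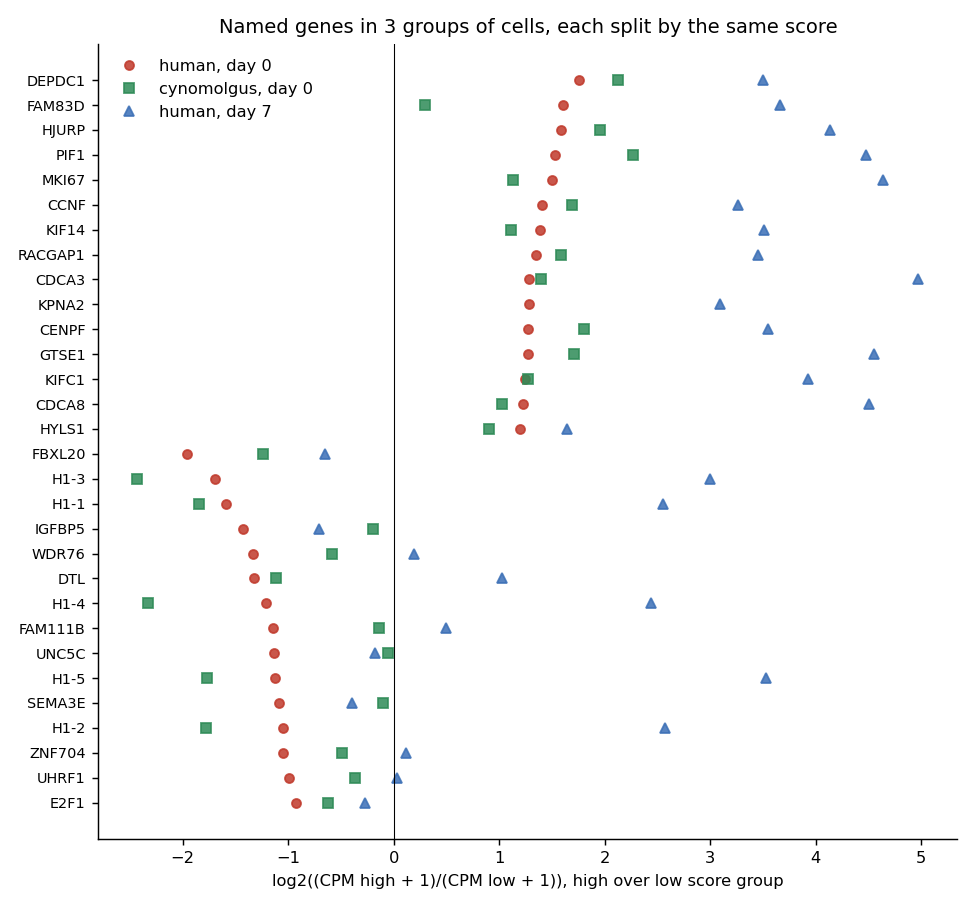
log2((CPM high + 1)/(CPM low + 1)) of the 30 named genes in human day 0, cynomolgus day 0 and human day 7 cells, each split into 4 groups by the same 8-gene score. Histone H1 genes lie below 0 in both day 0 groups (H1-3 at -1.69 in human and -2.43 in cynomolgus cells) and above 0 at day 7 (H1-3 at 3.002). KPNA2 has no cynomolgus point.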

How the data were processed

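The authors deposited UMI counts per gene and barcode for 1 library per day, made with 10x Chromium 3′ chemistry per the labels' protocols. The count files name Cell Ranger 7.1.0 per the file headers, while the submitters' processing notes list Cell Ranger 7.2.0 and GRCh38. Counts cover 20669 human and 22504 cynomolgus genes. Whether intron reads were counted is not given in the sources used here.

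Human cells had at least 90% human UMIs, 2000 UMIs, 500 genes and at most 20% mitochondrial UMIs. No doublet caller was run. The 4 score groups were filled by rank, ties by barcode order. UMIs were summed per group and scaled to CPM, with exact Poisson, exact binomial and exact conditional ratio intervals. Named genes are the 15 largest differences each way at 20 CPM or more, besides scoring genes and list members at 5 CPM or more. APOLD1, CKAP2L, FZR1, G2E3 and the long genes of the closing section were singled out after their values were seen. The cells, lists and alternatives were chosen with earlier results of these data known. The planned promoter sequences were not used here. The tools were scipy 1.17.1, numpy 2.4.6, matplotlib 3.10.9 and pandas 2.3.3 under Python 3.11.15. The comparison of group levels and its intervals were tested on simulated Poisson counts with known changes, and the ranking on a toy example. Choice of cells by the score, variation between cells and thinning were not simulated.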

Additional observations from a re-analysis of the deposited data

Results flagged for a closer look

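Among the named genes 6 were at least 2-fold lower in the high score group of human day 0 cells and at least 2-fold higher in the high score group of human day 7 cells, as log2((CPM high + 1)/(CPM low + 1)). With 1 library per day the difference was not tested. H1-3 was at -1.69 on day 0 and 3.002 on day 7. H1-1 was at -1.59 and 2.55, H1-4 at -1.21 and 2.44, H1-5 at -1.12 and 3.53, and H1-2 at -1.05 and 2.57. DTL, an S phase gene, was at -1.32 and 1.03. The 5 linker histone genes were between 2.74 and 14.9 CPM in the low score group at day 7, and between 27.8 and 137 CPM in the low score group at day 0. In the high score groups they were between 30.7 and 93.2 CPM at day 7 and between 11.4 and 44.8 CPM at day 0. Cells of the day 7 low score group had no scoring UMI, and median depth was 4126 UMIs there and 6544 in its high score group, against 6400 and 8514 at day 0. Their part in the difference was not tested.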

How the results depend on the processing

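Of 630 values of the 30 named genes under 21 alternatives, 628 kept their direction and 514 stayed within the counting interval. The minimums of 20 and 1 CPM cannot change these values, and reversed ties left them identical. The 30 genes were also picked as the largest differences in these same cells, so the tally is a description only. Of the 30, all but E2F1 and UHRF1 were past 2-fold here. With thinned choice 12 of the 30 were under 2-fold, with thinned choice and levels 10, with a pseudocount of 5 CPM 9, with 2 sets 22 and with the score on CENPE, CENPA, KIF23 and CDK1 17, all 5 linker histone genes among these. IGFBP5 reversed to 0.28 with cells of at least 5000 UMIs and UNC5C to 0.48 without early neural cells. The number of genes at least 2-fold higher, 42, was 20 when members were chosen on counts thinned to 2500 UMIs, 65 for the outer 2 of 8 steps, 10 when all cells were split in 2 sets, 20 with the score on CENPE, CENPA, KIF23 and CDK1, and 154 at 1.5-fold. The number at least 2-fold lower, 29, was 12 with thinned choice, 52 with thinned choice and levels, 58 for the outer steps, 3 with 2 sets, 6 with a pseudocount of 5 CPM, 13 and 52 with minimums of 20 and 1 CPM, 7 with the last 4 genes and 182 at 1.5-fold. The 27 mitosis genes became 12 with thinned choice, 7 with 2 sets, 11 with the last 4 genes and 51 at 1.5-fold. Replication genes at least 2-fold lower, 0 here, were 1 with at least 1000 UMIs, 2 for the outer steps, 1 with a pseudocount of 0.1 CPM and 10 at 1.5-fold. None was 2-fold higher under any of the 22 alternatives run. Thinned choice shared 846 members with the full counts (68.7% of the members described) and the last 4 genes 837 (68.0%). The cause of these differences was not tested, except that outer steps, 2 sets, minimums and size limits differ in the cells or genes compared by construction. No paired analysis was possible because each day was 1 library and the labels give no replicate numbers. Depth limits the ranking. The last cell inside the upper limit of the score had 20 scoring UMIs and the first outside 18, but both were deep cells, at 13146 and 11837 UMIs. Shallower cells were placed on fewer, down to 3 scoring UMIs in a member.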

Other observations

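Several very long genes known for common fragile sites were higher in the high score group, a list written after FHIT was seen among the genes past 2-fold. FHIT, which encodes a dinucleoside hydrolase, was at 127, 144, 193 and 262 CPM in human day 0 cells, 2.07-fold higher (1.92 to 2.24). WWOX, a WW-domain oxidoreductase, was at 291, 365, 456 and 530.1 CPM. RBFOX1, a splicing factor and also a very long gene, was at 232, 262, 379.5 and 494 CPM. Of 14 such genes 12 had a log2 difference above 0 and 3 were at least 1.5-fold higher, beside 1.38% of all genes tested, but the list's median was 0.21, and DMD (41.2 and 41.4 CPM) and CNTNAP2 (106.9 and 97.6 CPM) were close to level. In cynomolgus day 0 cells FHIT was at 62.9 and 252 CPM, WWOX at 665 and 1431 CPM, and NAALADL2 at 10.1 and 49.6 CPM, and 7 of 14 were at least 1.5-fold higher, beside 3.94% of all genes tested there. In human day 7 cells FHIT was at 262 and 176 CPM, just short of 1.5-fold lower. There 12 of 14 were below 0, most of them by less than 1.5-fold. WWOX and PDE4D were above 0 at day 7, at log2 differences of 0.24 and 1.32.

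FBXL20 was lower in the high score group in all 3 groups of cells, at 47.1 and 11.3 CPM in human day 0, 94.3 and 39.4 CPM in cynomolgus day 0 and 186 and 118 CPM in human day 7 cells.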
